A study of Mus musculus with 24 samples.

Results

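The 8 genes described here are the suppressor of cytokine signalling family, Cish and Socs1 to Socs7, taken by symbol from the deposited expression tables of mouse bone marrow-derived macrophages. All 8 were found among the 23420 genes of each table. RNA was measured in 24 samples that form 12 groups of 2, and the cells of all groups came from male C57BL/6 mice aged 3 months and were differentiated for 6 days with M-CSF. In the antagonist experiment the cells received IL-4 with the DMSO and ethanol solvent, IL-4 together with GW9662, GW9662 alone, or the solvent alone as vehicle, each for 24 h. GW9662 is a covalent antagonist of the nuclear receptor PPARγ, and the labels give no dose of it. In the memory experiment, cells labelled PpargKO and wild-type (WT) cells were each taken in 4 states: unstimulated, after a first 3 h of IL-4, washed out (24 h of IL-4, then 24 h in differentiation medium), and washed out and given IL-4 again for 3 h. IL-4 was given at 20 ng/µl by the label. The label names neither the deleted part of Pparg nor a Cre driver. It is also not said whether both samples of a group derive from different mice or cultures, so the p-values measure the spread between these samples, which may be technical.

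SOCS proteins are a feedback brake on cytokine receptors. IL-4 binding activates receptor-bound JAK kinases, which phosphorylate the transcription factor STAT6, and STAT proteins then switch on several SOCS genes. CIS, the product of Cish, and SOCS2 bind phosphorylated receptor tails, SOCS1 and SOCS3 block JAK activity directly, and SOCS4 to SOCS7 act mostly on receptor tyrosine kinases and adaptor proteins. Each carries a SOCS box that recruits an Elongin B and C and Cullin-5 ubiquitin ligase. In macrophages SOCS1 is best known for restraining interferon-γ and IL-4 signals, and SOCS3 for restraining IL-6 signals through gp130.

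Start-site sequences are shown for Cish and Socs1, which had the largest rises with IL-4 on the log2(CPM + 1) scale used below. That scale understates changes of low genes such as Socs2, for which no window was at hand. Socs3 is shown as a member that fell with IL-4. The sequences are RefSeq's for GRCm38.p6, written 5′ to 3′ on the strand of the gene, and RefSeq start-site windows were at hand for 4 of the 8 members (Cish, Socs1, Socs3 and Socs4). Capitals mark matches to TTCNNNGAA, the spacing of a STAT recognition element that STAT5 is known to prefer. STAT6 is known to prefer TTC and GAA set 4 bases apart. Both forms and TTCNNGAA were searched in windows that run 250 bases before to 50 bases after the start, and each form is its own reverse complement, so that a search covers both strands. The Cish stretch covers chr9:107296649-107296678 on the plus strand and is 30 bases long, the Socs3 stretch covers chr11:117969452-117969616 on the minus strand and is 165 bases long, and the Socs1 stretch covers chr16:10785537-10785786 on the minus strand and is 250 bases long.
Cish: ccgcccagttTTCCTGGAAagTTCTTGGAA
Socs3: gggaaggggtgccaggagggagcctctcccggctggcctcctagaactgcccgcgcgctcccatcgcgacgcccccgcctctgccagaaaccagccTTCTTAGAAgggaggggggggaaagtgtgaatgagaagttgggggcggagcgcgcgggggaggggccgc
Socs1: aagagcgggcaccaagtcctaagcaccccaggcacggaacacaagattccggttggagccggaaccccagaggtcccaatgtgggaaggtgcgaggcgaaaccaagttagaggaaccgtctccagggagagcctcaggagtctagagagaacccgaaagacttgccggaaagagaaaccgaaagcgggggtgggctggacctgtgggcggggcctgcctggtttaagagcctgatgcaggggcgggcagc
Cish holds 2 matches to TTCNNNGAA that begin at bases 1 and 12 of the transcript, and Socs3 holds 1 that begins at -154, each counted for the 1 RefSeq start of the window. In the GENCODE annotation all 250 bases before the Cish start and 77 of the 250 before the Socs3 start lie in exons, so that both genes also have transcripts that begin further upstream. The form with 4 bases between and TTCNNGAA have no match in any of the 4 windows, and no form matches in those of Socs1 and Socs4. TTCNNNGAA occurs in 8.30%, the form with 4 bases between in 6.95% and TTCNNGAA in 8.52% of 32851 start-site windows. A match describes letters, and no binding was measured.

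In the GENCODE annotation of mm10, Cish spans chr9:107296026-107302784, Socs1 chr16:10782240-10785536, Socs2 chr10:95385362-95417180, Socs3 chr11:117966079-117970047, Socs4 chr14:47276931-47296102, Socs5 chr17:87107679-87137839 and Socs7 chr11:97362551-97398542, while Socs6 lies on chromosome 18. Of the 6419 exon bases of Cish, 740 (11.5%) lie under the opposite-strand genes Gm17040 and Gm17041. Whether strand was used in counting is not given in the sources used here, so reads of Cish and of those genes cannot be told apart there. Of their 50-base words, Socs6 shares 11.7% and Socs2 7.23% with transcripts of other genes, and the other members share 0 to 0.571%.

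Values are CPM, read counts scaled by the authors to about 1000000 per library. Over all genes, antagonist libraries summed to 940885 to 967332 CPM without IL-4 and to 1026870 to 1066280 CPM with IL-4. Memory libraries summed to 955956 to 1025850 CPM. Small differences therefore depend on this scaling, and TMM scaling was among the alternative fits. Each deposited column is the authors' mean of both samples of a group, and was separated here into the whole reads of a deeper and a shallower library. Where 2 values are given for a group, the deeper library comes first. A library of the antagonist experiment held 15980291 to 27612705 reads in genes, and a library of the memory experiment 5448233 to 16681506. Differences are on the log2(CPM + 1) scale, which understates changes of low genes, with the standard error (SE) of limma-trend, and a gene is called at a Benjamini-Hochberg adjusted p under 0.05 over all genes tested. A gene was tested where its mean reached 1 CPM in a compared group. Libraries fell into 2 kinds by their reads on genes with sequence copies elsewhere, whose median was 10.2 to 13.0 CPM in the low and 28.0 to 36.1 CPM in the high kind. All libraries labelled PpargKO and 1 of the 8 WT libraries were of the low kind, so that genotype and counting kind nearly coincide.

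All 8 macrophage markers were present in every library. The sum of 6 stroma markers, led by collagen genes, was 1083 CPM in the deeper library of WT cells given IL-4 a second time, 37.5 CPM in its shallower library, and at most 9.83 CPM in any other memory library. The same deeper library had the highest sum of 5 neutrophil markers of the memory experiment, 145 CPM against 18.3 to 81.0 CPM elsewhere. Values without it are given beside the members' main results of the second WT exposure.

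After 24 h of IL-4, macrophages held high levels of Cish, Socs1 and Socs2 and a low level of Socs3. Cish stood at 140 and 208 CPM with IL-4, against 2.62 and 2.65 CPM with vehicle. Socs1 stood at 107 and 160 CPM with IL-4, against 3.17 and 2.12 CPM with vehicle. Both IL-4 libraries lay far above both vehicle libraries for each gene. Cish was higher by 5.56 (SE 0.25, adjusted p = 3.2e-05) and Socs1 by 5.19 (SE 0.28, adjusted p = 6.3e-05) on the log2 scale. Socs2, which is known for restraining growth hormone signals, was nearly unread in vehicle cells: 16.5 and 10.7 CPM with IL-4, against 0.0698 and 0 CPM with vehicle. That is 536 reads in the IL-4 libraries and 2 in the vehicle libraries, a ratio of 319 with a 95% counting interval of 88.0 to 2644, and a fitted difference of 3.79 (SE 0.33, adjusted p = 0.00041). Socs3 went the other way, with 2.30 and 2.84 CPM with IL-4 against 32.3 and 23.3 CPM with vehicle, a difference of -3.00 (SE 0.35, adjusted p = 0.0012). In such whole-culture RNA, fewer cells of a type and less RNA per cell cannot be told apart.

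In all, 4 of 8 members passed the test for IL-4 against vehicle, where 18.2% of 11140 tested genes did. The median difference was 0.48 over the 8 members and -0.02 over all tested genes. Socs6 reached 67.2 and 34.8 CPM with IL-4, against 26.2 and 32.7 CPM with vehicle, and missed the threshold (0.71, SE 0.33, adjusted p = 0.20). The higher Socs6 value of each of these groups came from its high-kind library. Between the low-kind libraries alone, a comparison added after seeing the data, the difference was 0.39. Socs4, Socs5 and Socs7 differed by 0.25, 0.15 and -0.33, each with a 95% interval that includes 0. Most sums of cell type markers were also lower with IL-4. The T and NK cell sum was higher, at means of 0.964 CPM with IL-4 and 0.416 CPM with vehicle. So was the stroma sum, at 0.341 CPM with IL-4 and 0.241 CPM with vehicle. The neutrophil sum was 191 and 132 CPM with IL-4, against 247 and 343 CPM with vehicle. The macrophage sum averaged 17838 CPM with IL-4 and 39178 CPM with vehicle, of which the lysozyme gene Lyz2 made 6409 and 23273 CPM. Without Lyz2 the macrophage sum was 11449 and 11409 CPM with IL-4, against 15992 and 15818 CPM with vehicle. Of its 8 markers, 4 with IL-4 and 5 with vehicle could not be separated. These entered both libraries at the group mean, so that the library sums are not independent. The B cell sum was 2.67 and 2.96 CPM with IL-4, against 5.61 and 7.77 CPM with vehicle, and that of mast cells, basophils and eosinophils averaged 6.42 CPM with IL-4 and 12 CPM with vehicle. Their part in these results was not tested.

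**Figure D1:**
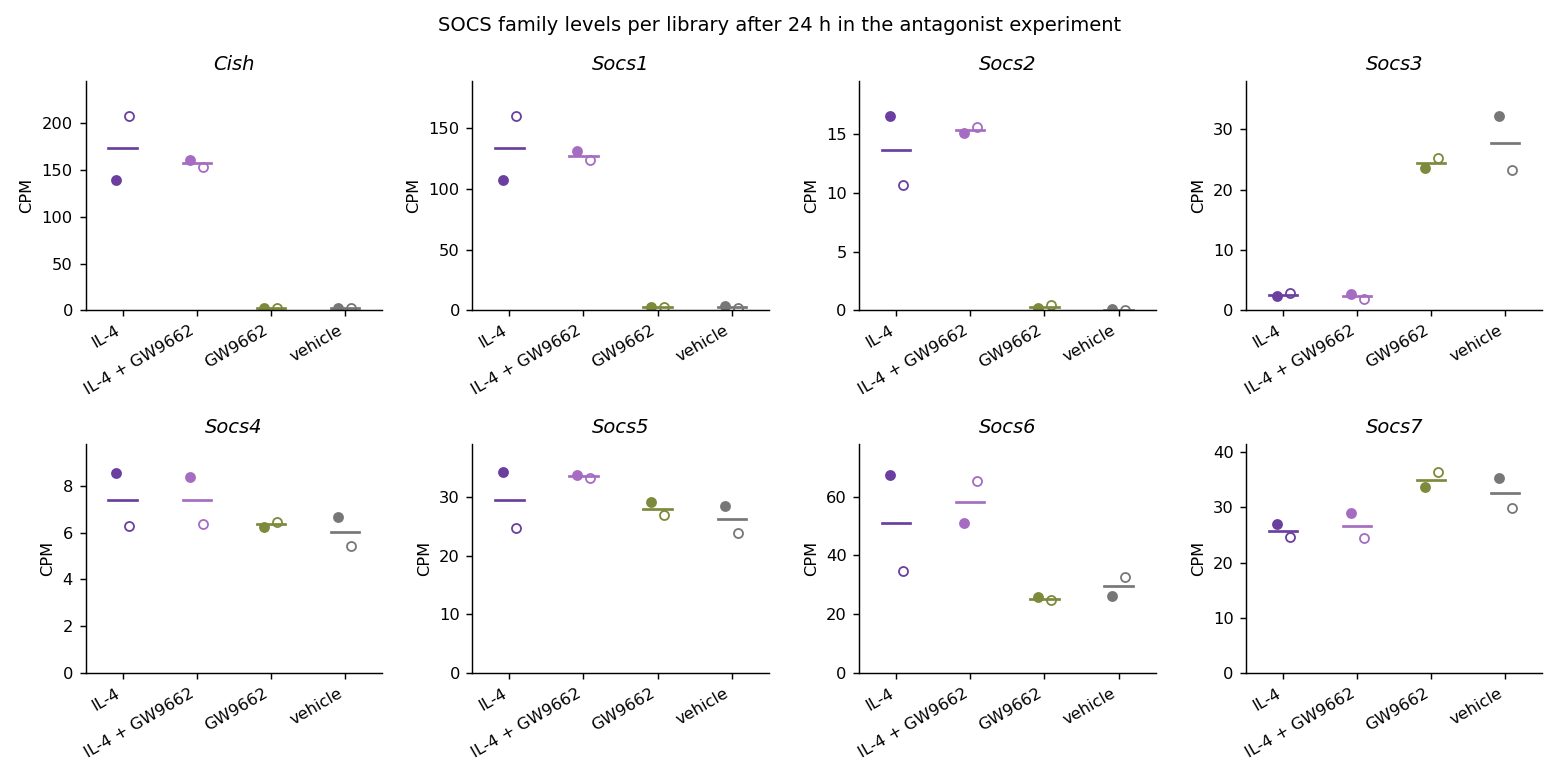
Level of each SOCS gene (CPM, linear axis) after 24 h of IL-4, IL-4 with GW9662, GW9662 or vehicle. Filled points are the deeper and open points the shallower library of a group, and lines are their mean. Cish, Socs1 and Socs2 are high and Socs3 is low in both groups with IL-4, and the scatter of the IL-4 group is wide (Cish at 140 and 208 CPM).

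The members responded to IL-4 in the presence of GW9662 as well. With IL-4 and GW9662 together, Cish stood at 161 and 154 CPM, against 1.95 and 2.46 CPM with GW9662 alone. Socs1 stood at 131 and 123 CPM with both agents, against 2.99 and 2.87 CPM with GW9662 alone. Socs2 stood at 15.1 and 15.6 CPM with both agents, against 0.181 and 0.462 CPM with GW9662 alone. Socs3 again ran opposite, with 2.71 and 1.89 CPM with both agents against 23.5 and 25.3 CPM with GW9662 alone. None of these 4 genes overlapped between the groups, and how often this held over all genes was not counted. The differences were 5.63 for Cish, 5.03 for Socs1, 3.64 for Socs2 and -2.96 for Socs3 (SE 0.11, 0.12, 0.15 and 0.15, adjusted p = 7.0e-08, 1.8e-07, 1.3e-06 and 4.1e-06).

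Here Socs6 and Socs7, which act on insulin receptor and adaptor signalling in other cells, also passed. Socs6 had 51.2 and 65.3 CPM with both agents, against 25.9 and 24.7 CPM with GW9662 alone (1.16, SE 0.14, adjusted p = 0.00039). Socs7 had 29.0 and 24.4 CPM with both agents, against 33.8 and 36.3 CPM with GW9662 alone (-0.38, SE 0.10, adjusted p = 0.016), a call lost without the shallower library of either group and in a fit without group weights. Between low-kind libraries alone, which leave 1 library with both agents, Socs6 differed by 0.99. The neutrophil marker sum was 144 and 207 CPM with both agents, against 353 and 274 CPM with GW9662 alone. The macrophage sum averaged 17584.5 CPM with both agents and 37838 CPM with GW9662 alone, of which Lyz2 made 6575 and 21451 CPM. Without Lyz2 it was 11042 and 10978 CPM with both agents, against 16377 and 16397 CPM with GW9662 alone. Unseparated markers again entered both libraries at the group mean. Their part was not tested here either. This made 6 of 8 members called against GW9662 alone, where 51.3% of 11130 tested genes were. The IL-4 group, whose libraries lay far apart, had a fit weight of 0.211, and the other antagonist groups 1.23 to 2.66. Without group weights, IL-4 with GW9662 against GW9662 called 5 members and 3309 genes, and IL-4 against vehicle 4 members and 3590 genes. With counting kind as a term the first of these called all 8 members and the second 5.

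The comparisons of this experiment share libraries, so their values are not independent. Set directly against IL-4 alone, adding GW9662 moved no member past the test of limma-trend: 0 of 8 were called, 0 reached an unadjusted p under 0.05, and limma-voom called 0. Over all 10867 genes tested 0% were called, and 1 gene reached an unadjusted p under 0.05. That is far below a share of 0.05 of the genes, and the IL-4 group had the low fit weight of 0.211. The test thus had little power, and 0 calls do not show that GW9662 left the members unchanged. For Cish the difference was -0.12 with a 95% interval of -0.70 to 0.47, for Socs1 -0.04 (-0.69 to 0.61), for Socs2 0.19 (-0.58 to 0.96) and for Socs3 -0.12 (-0.93 to 0.69). GW9662 alone against vehicle called 0 of 7 tested members, limma-voom 0, and 0 had an unadjusted p under 0.05, with 0% of 10938 genes called and 257 at an unadjusted p under 0.05. The narrower intervals there ran from -0.46 to 0.09 for Cish and from -0.54 to 0.22 for Socs3. The test of the IL-4 response with GW9662 minus that without likewise called 0 of 8, with 0 by limma-voom, 0 at an unadjusted p under 0.05, and 0% of 11232 genes. The same IL-4 group enters that test, and the same limit applies.

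**Figure D2:**
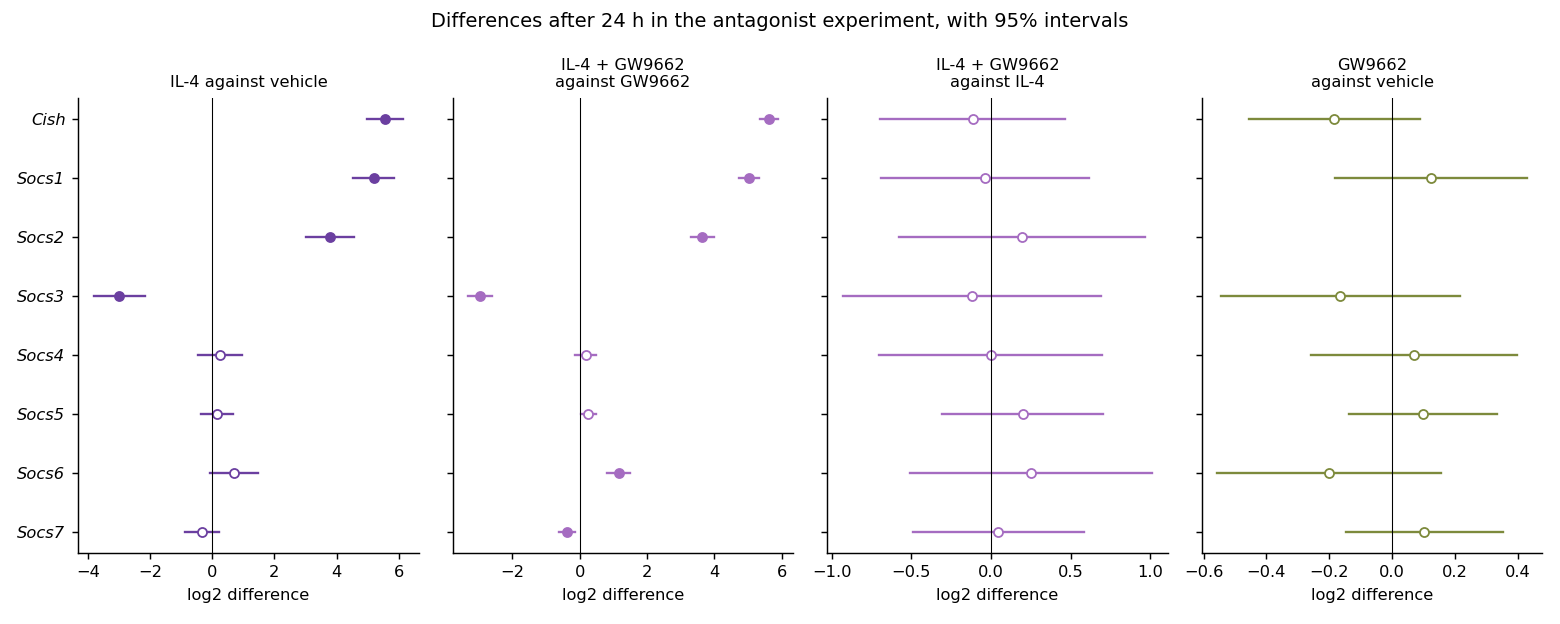
Log2 differences of the 8 SOCS genes in the antagonist experiment, with 95% intervals. Filled points passed the adjusted threshold. The panels with IL-4 on 1 side only show Cish, Socs1 and Socs2 far above 0 and Socs3 far below, and the panels for GW9662 show intervals that include 0 for every member tested. Socs2 is not drawn for GW9662 against vehicle, where it was below the filter.

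In the memory experiment the targeted gene itself comes first. Pparg had 22.3 and 19.9 CPM in unstimulated cells labelled PpargKO, against 24.2 and 21.9 CPM in WT cells. After the second IL-4 it had 36.3 and 45.5 CPM in cells labelled PpargKO, against 34.8 and 33.3 CPM in WT cells. The whole-gene mean under the knockout label was slightly lower in unstimulated cells, at 21.1 against 23.0 CPM with overlapping libraries. It was higher in every other state, and no test of Pparg between the labels is given here. Because the deleted part is not stated, reads over the whole gene do not check the label, and the libraries are called by their label throughout. Lyz2, a macrophage lysozyme gene singled out after its values were seen, did set the labels apart: the authors' group means were 14.5 to 41.8 CPM in the 4 groups labelled PpargKO, against 21966 to 30727 CPM in the 4 WT groups. The Lyz2 locus is widely used to carry Cre in myeloid cells, and the labels name no driver here. The cause of this difference was not tested, and genotype and counting kind nearly coincide in the memory experiment. In the antagonist experiment, which was scaled separately, the group given GW9662 alone had 21451 CPM, with both libraries of the low kind.

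The first 3 h of IL-4 raised Cish, Socs1, Socs2 and Socs5 in both genotypes. Cish had 176 and 174 CPM after the first IL-4, against 1.55 and 1.17 CPM in unstimulated cells labelled PpargKO. The WT cells had 159 and 139 CPM after the first IL-4, against 0.313 and 0.662 CPM unstimulated. Those 9 WT reads against 3224 give a ratio of 309, with a 95% counting interval of 163 to 677. The fitted differences were 6.23 (SE 0.15, adjusted p = 2.5e-14) in cells labelled PpargKO and 6.66 (SE 0.15, adjusted p = 6.2e-15) in WT cells.

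Socs1 was induced over a similarly low starting level. It had 286 and 278 CPM after the first IL-4, against 0.913 and 0.932 CPM in unstimulated cells labelled PpargKO. In WT cells it had 265 and 271 CPM after the first IL-4, against 0.730 and 1.10 CPM unstimulated. The differences were 7.20 (SE 0.13) and 7.14 (SE 0.12), with adjusted p = 1.3e-15 in cells labelled PpargKO and 9.7e-16 in WT cells. Socs2 had 22.6 and 27.2 CPM after the first IL-4 and no read in unstimulated cells labelled PpargKO. Against a floor of 3 reads per library, 0.312 CPM, it was at least 79.9-fold higher. In WT cells Socs2 had 40.3 and 33.1 CPM after the first IL-4, against 0 and 0.221 CPM unstimulated, which are 2 reads (ratio 343, counting interval 94.7 to 2839).

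Socs5 is known for limiting IL-4 receptor and EGF receptor signals, and unlike the 3 others it was already well expressed. It rose to 113 and 119 CPM after the first IL-4, against 45.8 and 42.2 CPM in unstimulated cells labelled PpargKO. WT cells reached 132 and 122 CPM, against 44.2 and 41.6 CPM unstimulated. The differences were 1.38 (SE 0.08, adjusted p = 1.0e-09) in cells labelled PpargKO and 1.54 (SE 0.08, adjusted p = 1.7e-10) in WT cells. No library of 1 state reached those of the other.

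Socs3 fell within the same 3 h. It had 3.33 and 4.91 CPM after the first IL-4, against 13.2 and 12.1 CPM in unstimulated cells labelled PpargKO, and 3.39 and 4.14 CPM against 8.97 and 11.0 CPM in WT cells. The differences were -1.43 (SE 0.17, adjusted p = 3.1e-06) in cells labelled PpargKO and -1.21 (SE 0.16, adjusted p = 1.3e-05) in WT cells. Socs6 also fell, to 17.4 and 19.3 CPM against 24.7 and 25.3 CPM in cells labelled PpargKO and to 22.3 and 22.7 CPM against 34.6 and 32.1 CPM in WT cells. Its differences were -0.43 (SE 0.12, adjusted p = 0.0072), lost without the deeper first-exposure library, without group weights and by limma-voom (adjusted p = 0.21), and -0.55 (SE 0.11, adjusted p = 0.00083). Socs4 passed in WT cells only (-0.47, SE 0.16, adjusted p = 0.025), against 0.11 (SE 0.17, adjusted p = 0.64) in cells labelled PpargKO, but the test of that difference between genotypes gave an adjusted p of 0.35. The WT call was lost without either first-exposure library, without the deeper unstimulated one, without group weights and by limma-voom. Socs7 had 32.1 to 39.8 CPM in these 4 libraries labelled PpargKO and 33.9 to 40.2 CPM in the 4 WT libraries, with no call.

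For the first exposure 6 of 8 members were called in cells labelled PpargKO, where 44.1% of 11208 tested genes were, and 7 of 8 in WT cells, where 50.0% of 11345 tested genes were. The members' median difference was 0.74 in cells labelled PpargKO and 0.83 in WT cells, against -0.02 and -0.01 over all tested genes.

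**Figure D3:**
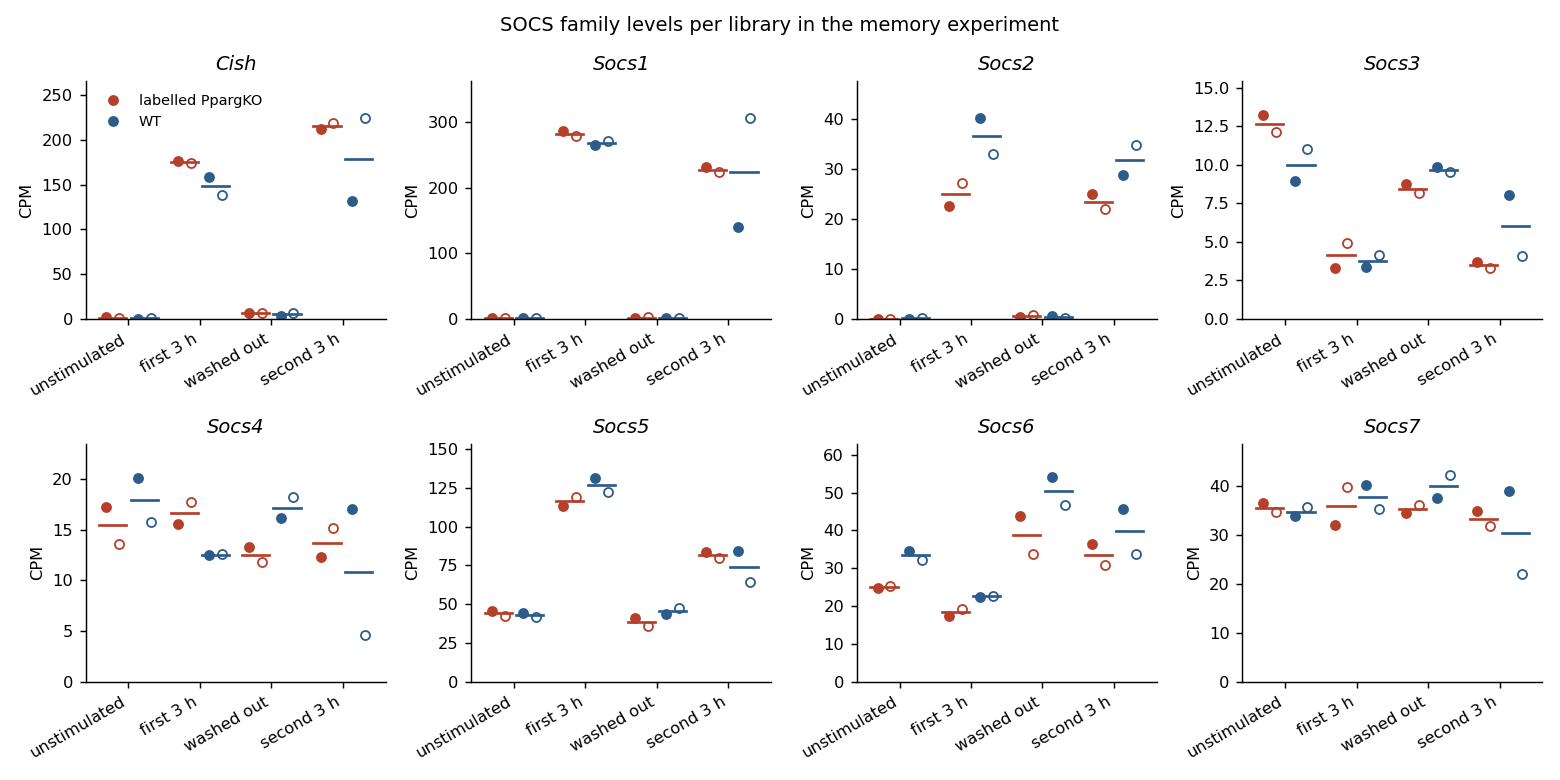
Level of each SOCS gene (CPM, linear axis) in the memory experiment, in 4 states, with cells labelled PpargKO left of WT cells. Filled points are the deeper and open points the shallower library, and lines are their mean. Cish, Socs1 and Socs2 are near 0 before IL-4 and after washout and high after both exposures, Socs3 is low where they are high, and the WT libraries of the second exposure lie far apart (Socs1 at 140 and 307 CPM).

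A day after IL-4 was washed out, Cish, Socs1 and Socs2 were far below their 3 h levels, and Cish stood above the level of unstimulated cells. No group is labelled as taken through the same time and medium change without IL-4. Earlier IL-4 and time in culture therefore cannot be told apart. This holds for every comparison of washed-out or restimulated cells with cells that had no pretreatment. It had 6.82 and 6.20 CPM in washed-out cells labelled PpargKO, against 1.55 and 1.17 CPM unstimulated, and 3.71 and 6.24 CPM in washed-out WT cells, against 0.313 and 0.662 CPM unstimulated. All 4 washed-out libraries lay above all 4 unstimulated ones. The differences were 1.67 (SE 0.15, adjusted p = 1.3e-06) in cells labelled PpargKO and 1.98 (SE 0.19, adjusted p = 2.6e-06) in WT cells. The washed-out mean was 3.71% of the first 3 h mean in cells labelled PpargKO and 3.34% in WT cells. The neutrophil marker sum was lower after washout, at 22.5 and 21.6 CPM washed out against 43.1 and 53.9 CPM unstimulated in cells labelled PpargKO, and 30.5 and 25.3 CPM against 75.2 and 69.4 CPM in WT cells. Its part in the washout results was not tested.

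Socs1 stood at 0.650% of its 3 h mean after washout in cells labelled PpargKO and at 0.373% in WT cells. It had 1.56 and 2.11 CPM in washed-out cells labelled PpargKO, against 0.913 and 0.932 CPM unstimulated, and this small rise passed (0.55, SE 0.13, adjusted p = 0.0061) but was lost without the shallower washed-out library. In WT cells Socs1 had 1.20 and 0.794 CPM washed out, against 0.730 and 1.10 CPM unstimulated, which was below the filter. Socs2 was below the filter in both genotypes, at 0.359 and 0.845 CPM in washed-out cells labelled PpargKO and 0.602 and 0.227 CPM in washed-out WT cells. Socs5 had 41.2 and 35.9 CPM in washed-out cells labelled PpargKO and 43.3 and 47.7 CPM in washed-out WT cells, and was not called.

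Socs6 was the other member called higher in washed-out than in unstimulated cells of both genotypes. It had 43.9 and 33.7 CPM in washed-out cells labelled PpargKO, against 24.7 and 25.3 CPM unstimulated, and 54.1 and 46.6 CPM in washed-out WT cells, against 34.6 and 32.1 CPM unstimulated. The differences were 0.60 (SE 0.12, adjusted p = 0.0018), lost without the deeper washed-out library, and 0.58 (SE 0.14, adjusted p = 0.013), lost without the deeper washed-out or the shallower unstimulated library. The deeper washed-out WT library is of the high counting kind and the shallower of the low kind. Socs3 had 8.73 and 8.17 CPM in washed-out cells labelled PpargKO, against 13.2 and 12.1 CPM unstimulated (-0.53, SE 0.17, adjusted p = 0.036), a call lost without any 1 of the 4 libraries. In WT cells it had 9.84 and 9.53 CPM washed out, against 8.97 and 11.0 CPM unstimulated, and the groups overlapped.

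Of the members tested after washout, 4 of 7 were called in cells labelled PpargKO, where 20.0% of 11230 genes were, and 2 of 6 in WT cells, where 14.6% of 11369 genes were. Limma-voom on the separated reads called 0 of these in either genotype, with adjusted p = 0.092 for Cish in cells labelled PpargKO and 0.069 in WT cells. The interaction tests of the washout difference between genotypes called 0 of 7 members, with 1 (Socs1) at an unadjusted p under 0.05, none by limma-voom, and 0.00869% of 11507 genes called.

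The second 3 h of IL-4 raised Cish, Socs1 and Socs2 again from the washed-out level. Cish had 213 and 219 CPM after the second IL-4, against 6.82 and 6.20 CPM in washed-out cells labelled PpargKO (4.85, SE 0.16, adjusted p = 1.3e-12). WT libraries read 132 and 225 CPM after the second IL-4, against 3.71 and 6.24 CPM washed out (4.89, SE 0.49, adjusted p = 3.3e-05). The lower of the WT values belongs to the library with the stroma markers, and without it the difference was 5.27 (adjusted p = 0.0011). Both second-exposure libraries lay above both washed-out ones in each genotype.

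Socs1 had 232 and 223 CPM after the second IL-4 in cells labelled PpargKO (6.34, SE 0.13, adjusted p = 1.9e-14) and 140 and 307 CPM in WT cells (6.71, SE 0.41, adjusted p = 3.3e-07; 7.27 without the stroma-marker library). Socs2 had 25.0 and 21.9 CPM in cells labelled PpargKO (3.95, SE 0.19, adjusted p = 1.3e-10) and 28.7 and 34.9 CPM in WT cells (4.54, SE 0.59, adjusted p = 0.00034; 4.68 without that library). In the restimulated cells labelled PpargKO, Socs5 rose to 83.6 and 79.7 CPM, against 41.2 and 35.9 CPM washed out (1.07, SE 0.09, adjusted p = 6.1e-08), and Socs3 fell to 3.72 and 3.33 CPM, against 8.73 and 8.17 CPM (-1.06, SE 0.18, adjusted p = 0.00015). In WT cells Socs5 differed by 0.68 (SE 0.27, adjusted p = 0.17) and Socs3 by -0.66 (SE 0.55, adjusted p = 0.56), or by 0.49 and -1.08 without the stroma-marker library, with no call. This called 5 of 8 members in cells labelled PpargKO, where 35.8% of 11282 genes were called, and 3 of 8 in WT cells, where 5.26% of 11958 genes were. The fit gave the restimulated WT group a weight of 0.0806, against 0.829 to 2.24 for the other memory groups, so that tests of it have less power. Without group weights the WT comparison called 4 members and 4443 genes, and by limma-voom 4 members and 4019 genes, against 629 genes in the reported fit.

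Set against the first exposure, the second gave no call for Cish, Socs1 or Socs2, while Socs5 was lower and Socs6 higher in cells labelled PpargKO. In cells labelled PpargKO the second mean of Cish was 123% of the first, that of Socs1 80.7% and that of Socs2 94.3%. For Cish the difference was 0.30 in cells labelled PpargKO (95% interval -0.04 to 0.63) and 0.21 in WT cells (-0.80 to 1.23), or 0.60 without the stroma-marker library. For Socs1 it was -0.31 in cells labelled PpargKO (-0.59 to -0.03, adjusted p = 0.11) and -0.37 in WT cells (-1.22 to 0.49), where leaving out the stroma-marker library turns it to 0.20. For Socs2 it was -0.08 in cells labelled PpargKO and -0.20 in WT cells, or -0.06 without that library.

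Each exposure was sampled at 3 h only, so that no peak was measured. Socs5 was lower the second time, at 83.6 and 79.7 CPM after the second IL-4, against 113 and 119 CPM after the first, in cells labelled PpargKO (-0.50, SE 0.09, adjusted p = 0.00051). In WT cells it had 84.3 and 64.1 CPM after the second IL-4, against 132 and 122 CPM after the first (-0.78, SE 0.26, adjusted p = 0.25). Socs6 was higher the second time, at 36.4 and 30.7 CPM after the second IL-4, against 17.4 and 19.3 CPM after the first, in cells labelled PpargKO (0.84, SE 0.12, adjusted p = 0.00012). In WT cells it had 45.6 and 33.9 CPM after the second IL-4, against 22.3 and 22.7 CPM after the first (0.78, SE 0.37, adjusted p = 0.58). In both genotypes neither gene's libraries overlapped between exposures, but how often this held over all genes was not counted. The neutrophil marker sum in cells labelled PpargKO was 18.3 and 21.7 CPM after the second IL-4, against 34.6 and 43.7 CPM after the first, and its part was not tested. Without the stroma-marker library the WT differences were -0.97 for Socs5 and 0.57 for Socs6, uncalled. Against washed-out cells, Socs6 did not rise with the second IL-4. It differed by -0.20 in cells labelled PpargKO and by -0.35 in WT cells, with no call.

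For the second against the first exposure, 2 of 8 members were called in cells labelled PpargKO, where 22.6% of 11190 genes were. In WT cells limma-trend called 0 of 8, with 1 at an unadjusted p under 0.05, where 0.320% of 11880 genes were called. Limma-voom, and limma-trend without group weights, called 2 WT members, Socs5 and Socs6, with adjusted p = 0.0020 and 0.014 by limma-voom.

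**Figure D4:**
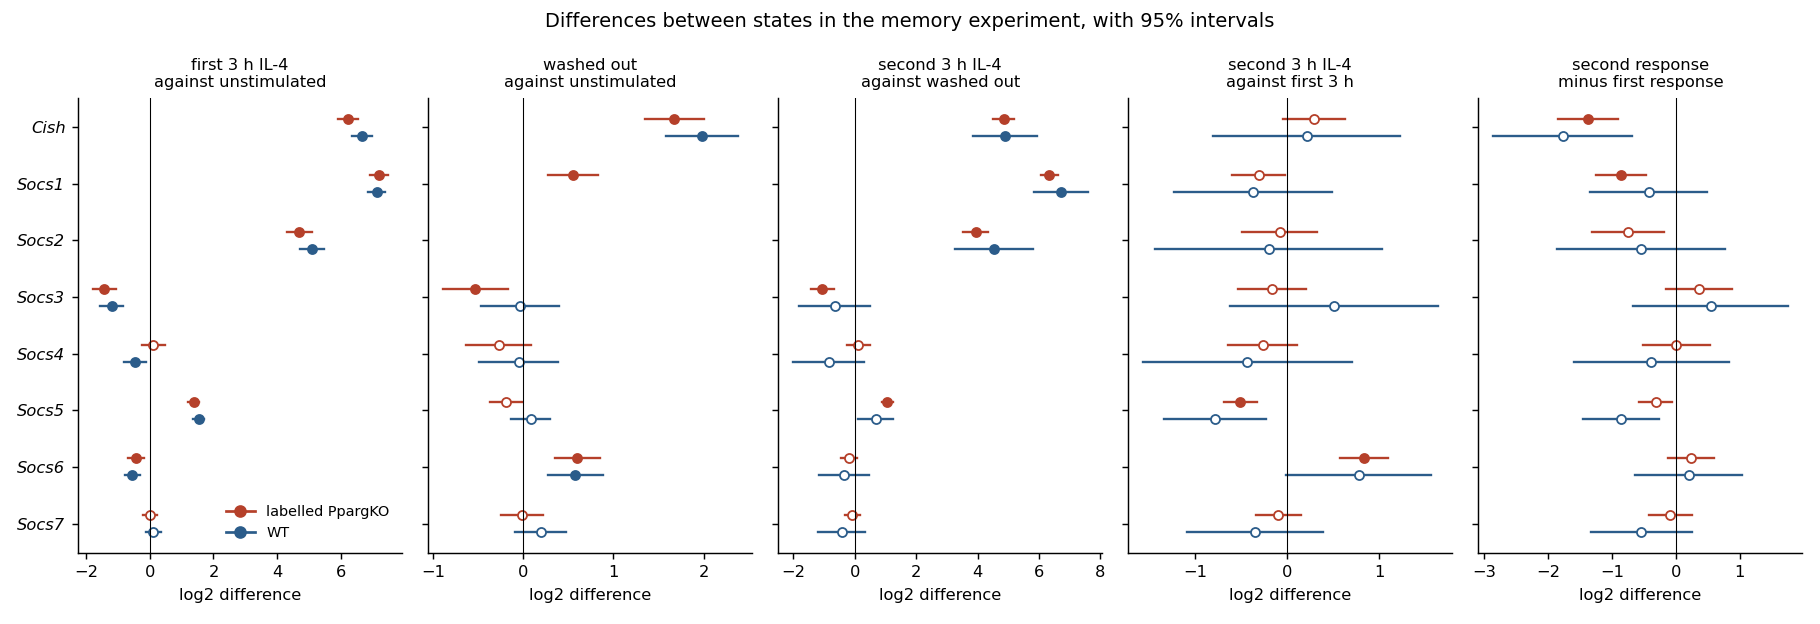
Log2 differences between states in the memory experiment with 95% intervals, cells labelled PpargKO above WT cells for each gene. Filled points passed the adjusted threshold, and the last panel is the difference of the 2 responses. Intervals of the second WT exposure are wide, and in the last panel Cish and Socs1 lie below 0 in cells labelled PpargKO. A member without a point was below the filter.

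The responses themselves were then compared, as the second IL-4 against washed-out cells minus the first IL-4 against unstimulated cells. In cells labelled PpargKO the second response of Cish was smaller by 1.38 (SE 0.22, adjusted p = 0.0037): the ratio of means was 33.1 the second time, against 129 the first. The 3 h levels were 216 CPM the second and 175 CPM the first time, and the levels before IL-4 were 6.51 CPM washed out and 1.36 CPM unstimulated. Socs1 had a second response smaller by 0.86 (SE 0.19, adjusted p = 0.030), with ratios of 124 the second and 306 the first time. The Socs1 call was kept in 1 of the 8 fits that leave out a library, and the Cish call in all 8. Neither was called by limma-voom or without group weights, where the adjusted p of Cish was 1.0 and 0.42. That made 2 of 8 members called, where 1.46% of 11435 genes were.

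In WT cells the same comparison gave -1.77 for Cish (SE 0.51, adjusted p = 0.31) and -0.43 for Socs1 (SE 0.43, adjusted p = 1.0). Limma-trend called 0 of 8 members there, limma-voom also called 0, and 2 reached an unadjusted p under 0.05, where 0.00828% of 12074 genes were called. Without the stroma-marker library the Cish value was -1.39 (adjusted p = 0.85), and the Socs1 value turned to 0.14 (adjusted p = 1.0). Without the deeper washed-out WT library the Cish value was -2.08. Cish passed without group weights (adjusted p = 0.044).

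Between genotypes Cish and Socs6 were called, both in unstimulated cells. There, Cish at 1.55 and 1.17 CPM in cells labelled PpargKO, against 0.313 and 0.662 CPM in WT cells, was higher by 0.67 (SE 0.15, adjusted p = 0.0042), and Socs6 was lower by 0.40 (difference -0.40, SE 0.11, adjusted p = 0.021). These were 2 of 6 tested members, where 18.4% of 11280 genes were called. Those are 2079 genes, against 33 with counting kind as a term, 85 by limma-voom and 341 without group weights. The Cish call was lost without the deeper WT library and the Socs6 call without any 1 of the 4, and with counting kind as a term the differences were 0.05 and -0.19 with no call. Genotype and counting kind cannot be told apart in these 4 libraries, where the kind term rests on the WT washed-out group.

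In the other states limma-trend called 0 members between genotypes. After the first IL-4 it was 0 of 8, with 3 at an unadjusted p under 0.05 (Socs2, Socs4 and Socs6), 0 by limma-voom, and 9.14% of 11245 genes called (1028 genes, against 30 with counting kind as a term). Socs2 there had 22.6 and 27.2 CPM in cells labelled PpargKO, against 40.3 and 33.1 CPM in WT cells, without overlap (-0.54, 95% interval -0.94 to -0.14, adjusted p = 0.095). After washout it was 0 of 7, with 3 at an unadjusted p under 0.05, 0 by limma-voom, and 3.29% of 11347 genes called. With the kind term Socs1 passed there (0.65, adjusted p = 0.017). After the second IL-4 it was 0 of 8, with 0 at an unadjusted p under 0.05, 0 by limma-voom, and 0.0252% of 11894 genes called. Leaving out the stroma-marker library there turned the difference of Cish to -0.06 (0.32 with it) and that of Socs1 to -0.43 (0.13 with it), with 0 members called. The tests of the IL-4 response between genotypes called 0 of 8 members for the first exposure (1 at an unadjusted p under 0.05, 0 by limma-voom, 0.0348% of 11494 genes called). For the second exposure they called 0 of 8 (0 at an unadjusted p under 0.05, 0 by limma-voom, 0% of 12072 genes called).

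Levels of different members were compared per kilobase of the longest transcript, as CPM per kb. Socs1 stood highest in all 6 groups collected in IL-4, from 43.7 CPM per kb with IL-4 and GW9662 for 24 h to 97.0 CPM per kb after the first IL-4 in cells labelled PpargKO. Cish came next in each of these, at 31.7 to 45.9 CPM per kb. In unstimulated and washed-out cells Socs5 led, at 8.29 to 9.78 CPM per kb. In the antagonist experiment without IL-4 Socs3 led, at 9.56 CPM per kb with GW9662 and 10.9 CPM per kb with vehicle, but with 24 h of IL-4 it was the lowest member at 1.01 CPM per kb. The order by CPM alone put Cish above Socs1 at 24 h. Across the tables, which were scaled separately and not tested together, the CPM of Socs5 after IL-4 was 113 to 132 at 3 h and 24.7 to 34.2 at 24 h, where vehicle cells had 23.9 to 28.4 CPM.

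Over the 8 memory groups the order of the levels was not sharp among the groups collected in IL-4. For Cish, cells labelled PpargKO after the second IL-4, WT cells after the second and cells labelled PpargKO after the first IL-4 overlapped in turn. WT cells after the first IL-4 came next, below the PpargKO-labelled cells of the first IL-4 without overlap but within the range of the WT cells after the second. For Socs1 both first-exposure groups stood above both second-exposure means, though the WT second-exposure libraries span 140 to 307 CPM. For Socs4 each group overlapped the next in the order, from a mean of 18.0 CPM in unstimulated WT cells to one of 10.8 CPM in WT cells after the second IL-4, and the libraries of that last group read 17.0 and 4.60 CPM.

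The genes whose 8 memory group means ran most like a member's are given with Pearson's r on the log2(CPM + 1) scale, among 3940 genes whose means range over at least 1, as a description of means that share libraries. For Cish they were Tfec (0.997), Klf4 (0.997) and Mapkapk3 (0.996), of which Tfec and Klf4 are transcription factors. Mapkapk3, a kinase gene at chr9:107254927-107289877 on the minus strand, begins 6148 bases from Cish, which lies on the plus strand. For Socs1 they were Pxdc1, Rps6kc1 and Abtb2 (each 0.997), for Socs2 Serpina3g (0.998) and Pop4 (0.996). For Socs3 they were Smad3 (0.987), Sipa1l1 and Ankrd33b, for Socs5 Tmem2 (0.994), Arap2 and Urb2, and for Socs6 Ugt1a6a (0.984), Frrs1 and Sowahc. Socs4 and Socs7 varied over less than 1 on that scale and none is given.

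The genes upstream of the family moved in both directions. The list counts below stand beside calls for 44.1% of all tested genes after the first IL-4 in cells labelled PpargKO, 50.0% in WT cells and 18.2% after 24 h of IL-4. Of 15 tested genes of the IL-4 receptor and JAK-STAT list, 4 rose and 7 fell after the first IL-4 in cells labelled PpargKO, and 6 rose and 3 fell in WT cells, with list medians of -0.15 and -0.01 beside -0.02 and -0.01 over all tested genes. Il4ra, the IL-4 receptor α chain, was higher by 1.58 in cells labelled PpargKO and 1.79 in WT cells, and the kinase Jak2 by 1.48 and 1.36. Il13ra1, which encodes a chain that can pair with the IL-4 receptor α chain, was lower, by -1.04 in cells labelled PpargKO and -0.90 in WT cells. After 24 h of IL-4 Il13ra1 stood at 1.10 and 0.664 CPM, against 16.8 and 14.1 CPM with vehicle (-3.13, SE 0.30, adjusted p = 0.00060). At 24 h 2 of 15 rose (Jak2 and the adaptor Irs2) and 5 fell, with a list median of -0.26. After the second IL-4 Il4ra stood at 802 and 790 CPM, against 1112 and 1142 CPM after the first, in cells labelled PpargKO (-0.50, SE 0.07, adjusted p = 6.6e-05).

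Of the 16 other inhibitors of cytokine signalling, 6 rose and 4 fell after the first IL-4 in cells labelled PpargKO and 7 rose and 5 fell in WT cells, with list medians of -0.06 and 0.11. The MAP kinase phosphatase gene Dusp4 had 218 and 246 CPM after the first IL-4, against 17.1 and 19.9 CPM in unstimulated cells labelled PpargKO (3.58, SE 0.11, adjusted p = 4.3e-13). After washout it was below the unstimulated level in WT cells, at 8.23 and 9.64 CPM against 15.5 and 14.7 CPM unstimulated (-0.70, SE 0.14, adjusted p = 0.0026). The ubiquitin ligase gene Cblb rose by 2.01 in cells labelled PpargKO and 1.93 in WT cells, and the phosphatase gene Dusp1 fell by 1.68 and 1.59. At 24 h 2 of 16 rose (Dusp4 by 3.91 and Cblb by 2.72) and 1 fell (Ptpn6, the phosphatase SHP-1, by 0.75), which is near the 18.2% of all tested genes, with a list median of 0.08.

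Of the 8 SOCS box partners, 2 rose and 0 fell after the first IL-4 in cells labelled PpargKO (Cul5 and Ube2m, against 44.1% of all tested genes), 3 rose and 0 fell in WT cells (against 50.0%), and 0 of 8 were called at 24 h, with list medians of 0.13, 0.18 and 0.15. Of the cytokine receptors, 4 rose and 9 fell of 18 tested after the first IL-4 in cells labelled PpargKO, and 5 rose and 8 fell in WT cells, with list medians of -0.23 and -0.16. Csf3r, the G-CSF receptor, rose by 0.97 and 1.09, and Il7r fell by 1.28 and 1.38, in cells labelled PpargKO and WT cells. Csf2rb rose too, but shares much of its sequence with Csf2rb2, and its reads are uncertain. Il6st, which encodes gp130, the receptor chain that SOCS3 binds, stood at 766 and 745 CPM after 24 h of IL-4, against 188 and 158 CPM with vehicle (2.13, SE 0.22, adjusted p = 0.00081). Of 21 cytokines that signal through JAKs, 3 to 6 were tested per comparison. Il10 was higher after the first IL-4 (1.08 in cells labelled PpargKO, 1.26 in WT cells) and lower after 24 h of IL-4, at 2.90 and 4.34 CPM against 14.1 and 13.8 CPM with vehicle (-1.71, SE 0.26, adjusted p = 0.0042).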

How the data were processed

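Per the labels' protocols, poly-A RNA was made into TruSeq libraries and sequenced on an Illumina HiSeq. The build mm10 and the programs Cufflinks 2.0.2 and TopHat2 2.0.7 are named, per the submitters' processing notes, in roles not given. The authors deposited 1 mean per group and gene, a signal in CPM (counts scaled to about 1000000 per library) with no spread. Low values show the step of 1 read in each of both libraries, and 170584 of 171808 values above 0 (99.3%) separate into whole reads in exactly 1 way. The other 1224 entered as 1 observation of weight 2. Which library is which replicate is not known. The members and lists were chosen with earlier results of these data known.

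Each table was fitted in R 4.3.3 with limma 3.58.1 (limma-trend) after log2(CPM + 1), using all libraries of a table, 1 coefficient and 1 weight per group, and no join of the tables. A gene entered a comparison where either group's mean reached 1 CPM, and Benjamini-Hochberg adjustment ran over all genes entered. Separation and fit were tested on simulated tables. Intervals on read ratios cover counting error only. The list genes named were picked from the 2 highest and 2 lowest called of a comparison, and not all of those are named. Stat4, Il21r, Lifr and Il15 are among those left out. For likeness the 3 genes with the highest r are given, less 1 that is not reported here. Alternatives were other pseudocounts, no filter, no group weights, TMM scaling, limma-voom, a counting kind term, each library left out, and, added after seeing the data, low-kind libraries only.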

Additional observations from a re-analysis of the deposited data

Results flagged for a closer look

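The difference between the second and the first IL-4 response in cells labelled PpargKO passed the test for 2 members. It was -1.38 for Cish and -0.86 for Socs1 on the log2(CPM + 1) scale, so that the second response was the smaller. The Cish level itself was higher after the second IL-4, at 216 against 175 CPM. Its level before IL-4 was also higher, at 6.51 CPM washed out against 1.36 CPM unstimulated. The Socs1 call was lost in most fits that leave out a library. The corresponding WT values were -1.77 and -0.43, neither past the threshold. Without the library that holds the stroma markers they were -1.39 and 0.14. The WT Cish value passed without group weights (adjusted p = 0.044) and without the deeper washed-out library (-2.08, adjusted p = 0.0072). Neither call in cells labelled PpargKO was made by limma-voom or without group weights, and a difference between the genotypes was not tested directly.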

How the results depend on the processing

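No paired analysis was possible because the deposited columns are group means, and the libraries separated from them carry no replicate number. The planned count model was not run, since columns that mix the reads of 2 libraries are not counts. Of 43 member calls, 30 held under every alternative fit of the same libraries and 33 under every fit that leaves out a library, and no call changed sign. Without group weights, 1 member was called for WT washout (2 in the reported fit), 2 for the second against the first WT exposure (0), 1 for washout in cells labelled PpargKO (4), 0 between unstimulated genotypes (2), 1 for the WT second minus first response (0) and 0 for the same in cells labelled PpargKO (2). Limma-voom called 0 in the 2 washout comparisons, 2 for the second against the first WT exposure, 0 between unstimulated genotypes and 0 for the second minus first response in cells labelled PpargKO. With counting kind as a term, 0 were called between unstimulated and 1 between washed-out genotypes (0 in the reported fit). Smaller moves were 5 with this term for IL-4 against vehicle (4) and 8 for IL-4 with GW9662 against GW9662 (6). Limma-voom gave 5 for IL-4 against vehicle, and the fit without weights 5 for IL-4 with GW9662 against GW9662. Both of these fits gave 6 for the first WT exposure (7), 5 for that in cells labelled PpargKO (6) and 4 for the second WT exposure against washed-out cells (3). The cause of these changes was not tested.

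Leaving out 1 library at a time gave 5 to 6 calls for IL-4 with GW9662 against GW9662, 6 to 7 for the first WT exposure and 5 to 6 for that in cells labelled PpargKO, 1 to 2 for WT washout and 2 to 3 for washout in cells labelled PpargKO, 0 to 1 between unstimulated genotypes, 0 to 1 for the WT second minus first response and 1 to 2 for that in cells labelled PpargKO. Over all genes, calls for IL-4 against vehicle numbered 2025, and 725 to 1642 with a library left out. Those for the second against the first WT exposure numbered 38, and 5 to 1239 in other fits. At the depth of the memory libraries 3 reads are 0.183 to 0.526 CPM, so that Socs2 and Socs1 before IL-4 rest on few reads.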
